A study of Mus musculus with 6 samples.

Results

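Reads of 40 mitosis genes were followed through 6 RNA sequencing libraries of mouse pericardial adhesion tissue and heart. The genes were taken by name from a list covering entry into mitosis, the spindle, the centromere, chromosome structure and cytokinesis, and all 40 were present among the 23420 genes of both expression tables. No measured value entered the choice of a member, although the list was drawn up with earlier results of these data known. The members were grouped by role into 7 groups of 3 to 7 genes.

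Pericardial adhesions are bands of scar that join the heart to its sac. They were induced in male C57BL/6 mice, 8 weeks old and with no stated genetic change, by injecting 300 µL of talc in saline (2.5 mg/g) into the pericardial cavity. Adhesion tissue at days 1, 3 and 7 and whole heart at days 0, 3 and 7 were sequenced after depletion of ribosomal RNA, and the study's methods describe the heart samples as myocardium taken apart from the adhesions. Each condition was 1 library, so differences could not be set against a spread between replicates, and no test was run. The sources used here do not state whether a library came from 1 mouse or from pooled mice, or whether the day 0 mouse had been injected. The first adhesion library carries day 1 in its title and stage label but day 0 in its source label, and is called day 1 here. Intervals on reads and ratios are exact 95% intervals that cover counting error only, and comparisons within a tissue that use the same first library share that library.

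The libraries held 1615922 to 1844565 reads in genes, so that 1 read corresponded to 0.542 to 0.619 CPM, the usual unit of reads divided by library size. The tissue labels were checked against markers. Cardiomyocyte markers summed to 30500, 975 and 13790 CPM in adhesion tissue at days 1, 3 and 7, and all 12 of them were detected there, against 138800 to 169400 CPM in heart. Skeletal muscle markers reached 6910 CPM in adhesion tissue at day 1 and thymocyte and T cell markers 342 CPM in the same library. Lung epithelium markers summed to 489 CPM in adhesion tissue at day 1, 653 CPM in adhesion tissue at day 7 and 225 CPM in heart at day 7, and to at most 11.1 CPM elsewhere. In such bulk tissue, fewer dividing cells and less RNA per dividing cell cannot be told apart.

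Cells that divide copy their DNA and then pass through mitosis, in which cyclin-dependent kinase 1 with its A and B cyclins starts chromosome condensation and spindle assembly. The spindle checkpoint holds the chromosomes until every kinetochore is attached, and cytokinesis then parts the daughter cells. Most transcripts of these genes are made late in the cell cycle, under the transcription factors FOXM1, B-MYB and NF-Y together with the MuvB complex, and are scarce in resting cells. Adult mouse cardiomyocytes divide rarely, whereas fibroblasts, macrophages and endothelial cells of an injured heart can divide.

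Reads of the 40 genes together were highest at day 3 in both tissues. Adhesion tissue had 501, 3009 and 2003 of these reads at days 1, 3 and 7, or 280, 1862 and 1086 CPM, and heart had 261, 1218 and 682 reads at days 0, 3 and 7, or 152, 673 and 375 CPM. On the deposited scale the sum was 6.7-fold higher (6.1 to 7.38) at day 3 and 3.97-fold (3.6 to 4.39) at day 7 in adhesion tissue, each against day 1. In heart it was 3.91-fold higher (3.42 to 4.49) at day 3 and 2.26-fold (1.96 to 2.62) at day 7, each against day 0. The day 3 library was the highest of the tissue for 39 of 40 members in adhesion tissue and for 37 of 40 in heart, against 26.8% and 29.8% of all genes with a read. The exceptions, Bub1b in adhesion tissue and Cenpf, Knstrn and Smc2 in heart, were highest at day 7, and no member was highest in the first library of either tissue.

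Counted gene by gene, 38 of 40 members were over 3-fold higher in adhesion tissue at day 3 than at day 1 after 1 was added to each value, where 3.78% of all genes with a read were. At day 7 against day 1 the count was 34 of 40, where 5.13% of all genes were. In heart, 33 of 40 members were over 3-fold higher at day 3 than at day 0, where 6.66% of all genes were, and 21 of the 39 members with a read were at day 7, where 6.84% were. The last count rested on few reads. It includes Kif2c with 2 reads at day 7 against 0 at day 0 and Nuf2 with 3 against 0, and it was 12 with at least 10 reads required over both libraries and 5 with a pseudocount of 5, which also lowered the adhesion day 7 count to 21. A counting interval wholly above 1 was found for 40 and 38 members in adhesion tissue at days 3 and 7, where 12.5% and 13.9% of all genes had one. In heart it was found for 35 and 15 members, where 9.19% and 8.46% of all genes had one. In these 4 comparisons no member was over 3-fold lower and no interval lay below 1. The median log2 ratio of the members was 2.98 and 2.21 in adhesion tissue and 2.77 and 1.64 in heart, while that of all genes lay between -0.10 and -0.003.

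**Figure D1:**
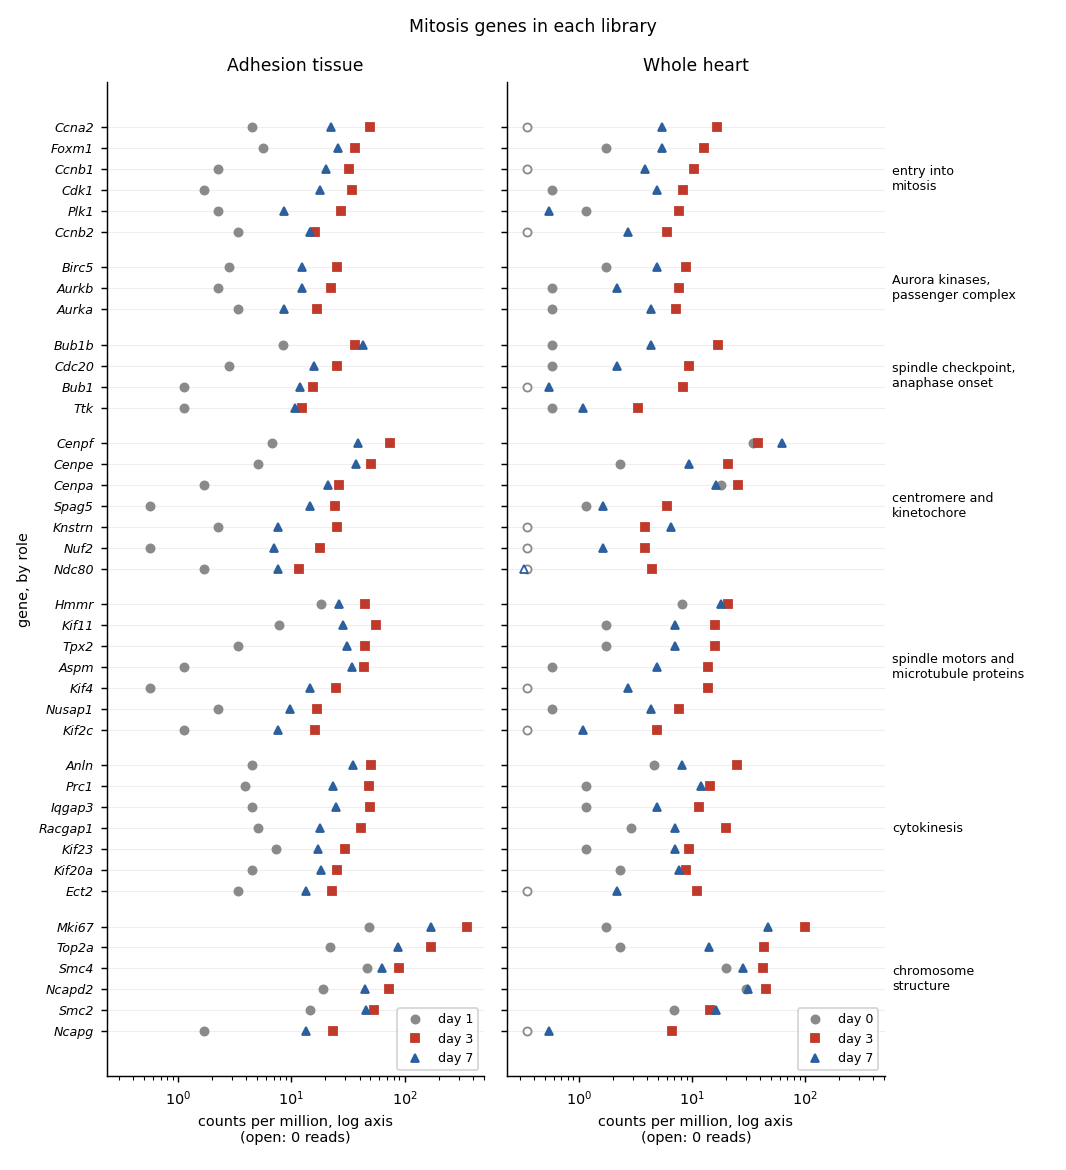
CPM on a log axis (x) of the 40 mitosis genes (y, by role) in adhesion tissue at days 1, 3 and 7 and in heart at days 0, 3 and 7, 1 point per library, with open symbols for 0 reads drawn below the level of 1 read. Day 3 is the rightmost point for 39 of 40 genes in adhesion tissue and 37 of 40 in heart.

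**Figure D2:**
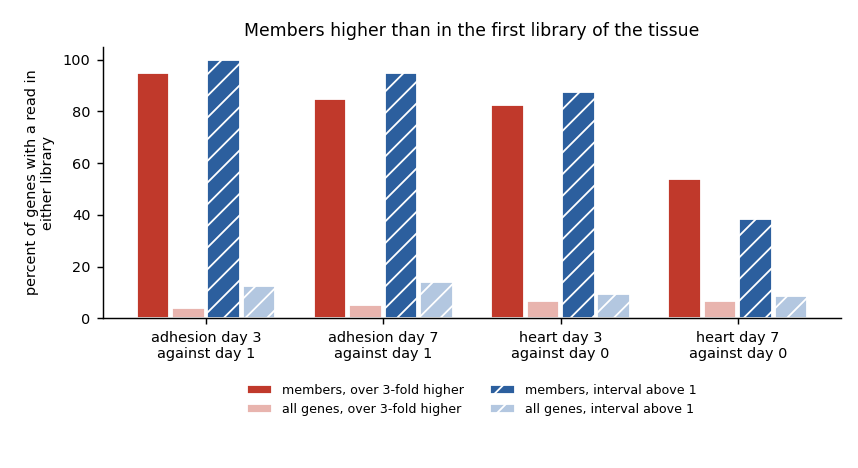
Percent of genes with a read in either library (y) that were over 3-fold higher (red) or had a 95% counting interval above 1 (blue, hatched), for the mitosis genes (dark) and all genes (pale) in 4 comparisons with the first library of the tissue (x). The shares of the mitosis genes run from 38.5% to 100% and those of all genes from 3.78% to 13.9%.

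Promoter sequence is shown here because the members were higher together at day 3, and 2 short elements are known from genes of this phase. The cell cycle genes homology region (CHR, searched as TTTGAA or TTCGAA) is bound by the MuvB complex, and the CCAAT box is bound by NF-Y. RefSeq windows of build GRCm38.p6 (mm10), from 250 bases before to 50 bases after a start site, were matched to 34 of the 40 members by symbol and gave 36 windows. Windows for Aurkb, Ccna2, Foxm1, Kif20a, Smc4 and Tpx2 were not used here. On either strand, a CHR was found in 30 of 36 member windows (83.3%), against 19.2% of the 32851 windows of all genes. CCAAT was found in 28 of 36 (77.8%), against 37.4% of all windows, and both elements in 26 of 36 (72.2%), against 7.52%. A match is a run of letters and not a measured binding site.

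The windows of the 3 members with the most reads among those that held both elements were as follows, written 5′ to 3′ on the strand of the gene, with CHR and CCAAT matches on either strand in capitals (TTCAAA and ATTGG on the opposite strand).
Mki67 (chr7:135716330-135716629, minus strand): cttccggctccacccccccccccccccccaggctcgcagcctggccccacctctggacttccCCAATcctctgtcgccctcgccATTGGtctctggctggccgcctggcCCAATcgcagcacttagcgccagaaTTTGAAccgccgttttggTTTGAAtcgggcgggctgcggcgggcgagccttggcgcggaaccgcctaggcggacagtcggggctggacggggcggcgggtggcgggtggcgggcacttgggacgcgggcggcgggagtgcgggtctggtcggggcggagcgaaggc
Top2a (chr11:99024140-99024439, minus strand): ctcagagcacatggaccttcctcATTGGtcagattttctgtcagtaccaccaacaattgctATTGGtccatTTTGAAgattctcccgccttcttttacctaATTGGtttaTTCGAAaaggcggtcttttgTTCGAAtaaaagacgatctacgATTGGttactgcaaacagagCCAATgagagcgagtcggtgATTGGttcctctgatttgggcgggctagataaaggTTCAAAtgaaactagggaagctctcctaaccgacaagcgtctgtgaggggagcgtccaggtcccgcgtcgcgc
Cenpf (chr1:189688037-189688336, minus strand): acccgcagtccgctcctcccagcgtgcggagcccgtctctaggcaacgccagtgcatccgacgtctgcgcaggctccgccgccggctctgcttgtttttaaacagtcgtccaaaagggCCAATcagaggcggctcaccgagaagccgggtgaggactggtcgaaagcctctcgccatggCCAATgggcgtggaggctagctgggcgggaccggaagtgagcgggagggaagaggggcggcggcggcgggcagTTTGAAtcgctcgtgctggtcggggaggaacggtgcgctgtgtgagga

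The window of Mki67 held 2 CHR and 3 CCAAT matches, that of Top2a held 4 and 6, and that of Cenpf held 1 and 2, and no match overlapped another. Prc1 and Ect2 had 2 overlapping windows each, so the members' 41 CHR matches were 38 distinct sites. Among the 41 matches, 28 (68.3%) began between 50 bases before and 49 bases after the start site, against 25.2% of the 7260 CHR matches in all windows. Their median position was -5 from the start site, against -125 in all windows. For the 31 CHR matches of members that had a CCAAT before them, the nearest one began a median of 32 bases upstream (quartiles 24.5 and 43.5), against 62 bases (28 and 116) for 1478 such matches in all windows. Birc5, Knstrn, Nuf2 and Nusap1 held neither element in these windows.

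**Figure D3:**
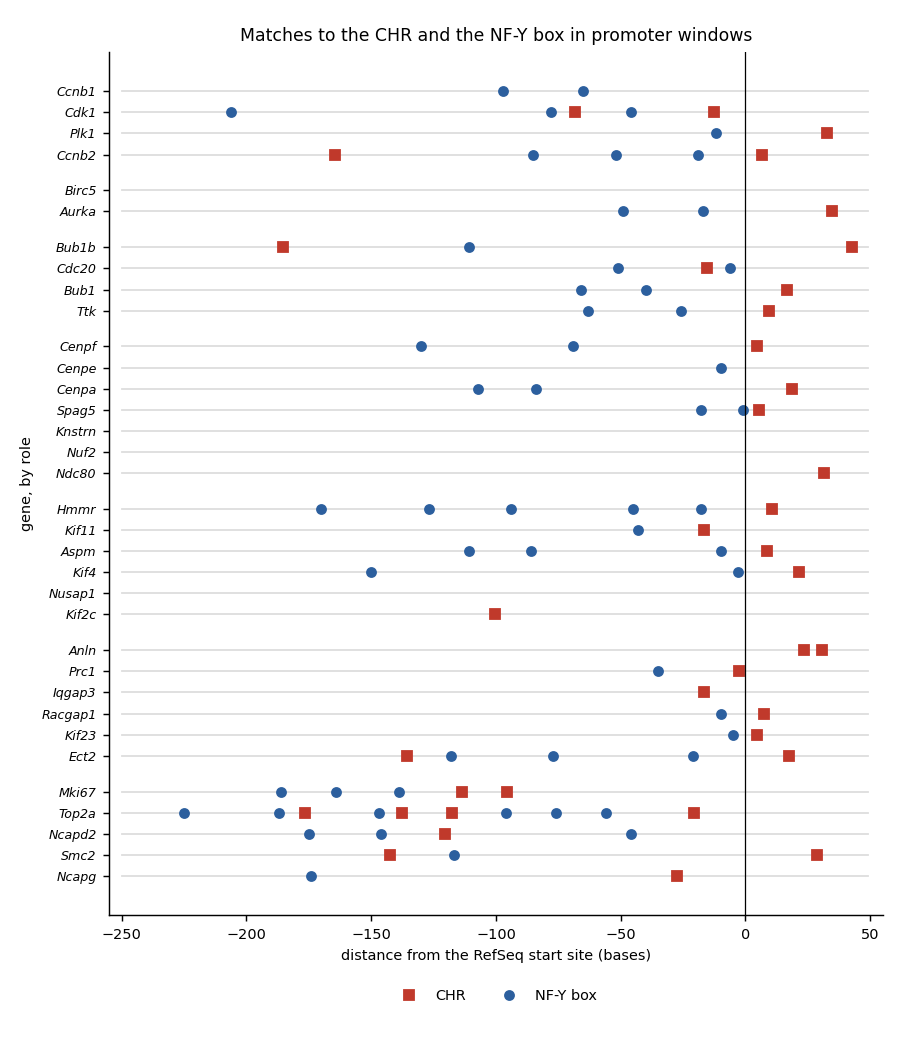
Matches to the CHR (red squares) and the NF-Y box CCAAT (blue circles), on either strand, in the promoter windows of 34 mitosis genes (y, by role), against the distance from the RefSeq start site in bases (x), with 1 window per gene. Most CHR matches lie near the start site, with CCAAT matches upstream of them, and 4 genes show no match.

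Genes of entry into mitosis were nearly silent in heart at day 0. Cyclin A2, encoded by Ccna2 (mm10 chromosome 3, 36564865 to 36571996), partners the kinases of S phase and early mitosis and had 8, 80 and 41 reads in adhesion tissue at days 1, 3 and 7 and 0, 30 and 10 reads in heart at days 0, 3 and 7. It was 11.2-fold higher (95% counting interval 5.4 to 26.7) in adhesion tissue at day 3 than at day 1. In heart, day 3 was 8.38-fold above day 0 with the 0 reads of day 0 set to a floor of 3 reads. The counting interval there, with the 0 kept, began at 6.41. Foxm1 (chromosome 6, 128362994 to 128375886), a transcription factor of genes of this phase, had 10, 59 and 48 reads in adhesion tissue and 3, 23 and 10 in heart. Both tissues had their highest Foxm1 reads at day 3, 6.59-fold (3.34 to 14.4) above day 1 in adhesion tissue and 6.43-fold (1.94 to 33.4) above day 0 in heart. Ccnb1 (chromosome 13, 100778739 to 100786486), which encodes the cyclin B1 that activates cyclin-dependent kinase 1, had 4, 52 and 37 reads in adhesion tissue and 0, 19 and 7 in heart. These were 14.5-fold (5.34 to 55.2) more in adhesion tissue at day 3 and 9.19-fold (3.3 to 35.5) more at day 7. In heart Ccnb1 was 5.31-fold higher at day 3 with the same floor, and its counting interval began at 3.91. Ccnb1 reads are uncertain, because 3 pseudogenes share over 50% of its longest transcript at 97.3% to 99.2% identity. Cdk1, Plk1 and Ccnb2 had 3 to 6, 26 to 56 and 16 to 33 reads in adhesion tissue at days 1, 3 and 7 and 0 to 2, 11 to 15 and 1 to 9 in heart at days 0, 3 and 7. Over the 6 genes the sum was 10.1-fold higher (7.12 to 14.8) in adhesion tissue at day 3 than at day 1 and 15.7-fold higher (6.97 to 43.5) in heart at day 3 than at day 0.

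The Aurora kinases direct spindle poles and chromosome attachment, and all 3 genes of this group were higher at day 3. Birc5 (chromosome 11, 117849237 to 117855743), which encodes the passenger protein survivin, had 5, 41 and 23 reads in adhesion tissue at days 1, 3 and 7 and 3, 16 and 9 reads in heart at days 0, 3 and 7. It was 9.15-fold higher (3.62 to 29.7) in adhesion tissue at day 3 than at day 1 and 4.47-fold higher (1.28 to 23.9) in heart at day 3 than at day 0. Aurkb (chromosome 11, 69045643 to 69051662), the kinase of the passenger complex, had 4, 36 and 23 reads in adhesion tissue and 1, 14 and 4 in heart. The Aurkb ratios to the first library at day 3 were 10.1-fold (3.6 to 38.9) in adhesion tissue and 11.7-fold (1.78 to 496) in heart, the second resting on 1 read at day 0. Aurka (chromosome 2, 172356196 to 172370506), the kinase of the spindle poles, had 6, 27 and 16 reads in adhesion tissue and 1, 13 and 8 in heart. It was 5.02-fold higher (2.03 to 14.9) in adhesion tissue and 10.9-fold higher (1.64 to 463) in heart, both at day 3. At day 7 its intervals included 1 in both tissues, with ratios of 2.65 (0.985 to 8.27) in adhesion tissue and 6.93 (0.929 to 308) in heart.

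Summed, genes of the spindle checkpoint and anaphase onset had day 7 reads near those of day 3 in adhesion tissue and well below them in heart. Bub1b (chromosome 2, 118598211 to 118641592), which encodes the checkpoint protein BUBR1, had 15, 59 and 79 reads in adhesion tissue at days 1, 3 and 7 and 1, 31 and 8 reads in heart at days 0, 3 and 7. Its day 7 value was the highest of the 3 in adhesion tissue, where the ratio of day 7 to day 3 was 1.19 (0.84 to 1.7), while in heart day 7 was 3.75-fold lower (1.69 to 9.44) than day 3. Cdc20 (chromosome 4, 118432901 to 118437343), whose product activates the anaphase-promoting complex, had 5, 41 and 29 reads in adhesion tissue and 1, 17 and 4 in heart. At day 3 it was 9.15-fold higher (3.62 to 29.7) in adhesion tissue than at day 1 and 14.2-fold higher (2.23 to 596) in heart than at day 0. The Cdc20 ratio of day 7 to day 3 in adhesion tissue was 0.63 (0.377 to 1.04), below that of the group. Bub1 (chromosome 2, 127800200 to 127831859), a checkpoint kinase gene, had 2, 25 and 22 reads in adhesion tissue and 0, 15 and 1 in heart. Heart at day 7 was 14.5-fold lower (2.23 to 611) than at day 3 for this gene, with 1 read left. Ttk, the gene of the checkpoint kinase MPS1, had 2, 20 and 20 reads in adhesion tissue and 1, 6 and 2 in heart. The 4 genes together had a day 7 to day 3 ratio of 0.921 (0.728 to 1.17) in adhesion tissue and were 4.45-fold lower (2.52 to 8.38) in heart, and the difference between tissues was not tested.

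Among centromere and kinetochore genes, Cenpf, Cenpa and Knstrn did not follow the heart pattern of the others. Cenpf (chromosome 1, 189640614 to 189688086), which encodes a large kinetochore and nuclear matrix protein, had 12, 119 and 72 reads in adhesion tissue at days 1, 3 and 7 and 60, 70 and 115 reads in heart at days 0, 3 and 7. In adhesion tissue it was 11.1-fold higher (6.11 to 22) at day 3 than at day 1, whereas in heart days 0 and 3 differed by less than counting error, with a ratio of 0.978 (0.683 to 1.40), and day 7 was the highest. Cenpa (chromosome 5, 30666902 to 30674826), which encodes the histone H3 variant that marks centromeres, had 3, 43 and 39 reads in adhesion tissue and 31, 46 and 30 in heart. It was 16-fold higher (5.12 to 80.6) in adhesion tissue at day 3 than at day 1 and held near 1 in heart, at 1.24 (0.772 to 2.03) for day 3 and 0.839 (0.49 to 1.43) for day 7 against day 0. Cenpe (chromosome 3, 135212563 to 135273540), a kinesin gene of chromosome alignment, had 9, 81 and 69 reads in adhesion tissue and 4, 38 and 17 in heart. For Cenpe both tissues were highest at day 3, 10.1-fold (5.04 to 22.8) above day 1 in adhesion tissue and 7.96-fold (2.87 to 30.7) above day 0 in heart. The other 4 genes, Ndc80, Nuf2, Knstrn and Spag5, had 1 to 4, 19 to 41 and 13 to 27 reads in adhesion tissue and 0 to 2, 7 to 11 and 0 to 12 in heart. Of these 4, Knstrn alone was highest in heart at day 7, with 0, 7 and 12 reads. Its ratio of day 7 to day 3 there was 1.77 (0.643 to 5.31). All 7 genes had intervals above 1 in adhesion tissue at day 3, and 5 of 7 had in heart.

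Spindle motors and microtubule proteins were higher at day 3 in both tissues, 7 of 7 by their intervals. Hmmr (chromosome 11, 40701388 to 40733437), which encodes a spindle protein that also binds hyaluronan, had 33, 72 and 49 reads in adhesion tissue at days 1, 3 and 7 and 14, 38 and 33 reads in heart at days 0, 3 and 7. It moved least of the group in adhesion tissue, 2.44-fold higher (1.59 to 3.8) at day 3 than at day 1, and in heart day 3 was 2.27-fold higher (1.21 to 4.55) than day 0. Kif11 (chromosome 19, 37376403 to 37421859), the motor gene that pushes spindle poles apart, had 14, 90 and 53 reads in adhesion tissue and 3, 29 and 13 in heart. That was 7.18-fold (4.06 to 13.7) more in adhesion tissue at day 3 than at day 1 and 8.1-fold (2.51 to 41.6) more in heart at day 3 than at day 0. Tpx2 (chromosome 2, 152847964 to 152895321), which encodes a spindle assembly factor and activator of Aurora A, had 6, 72 and 57 reads in adhesion tissue and 3, 29 and 13 in heart. Its ratios at day 3 were 13.4-fold (5.86 to 37.7) in adhesion tissue and 8.1-fold (2.51 to 41.6) in heart. Kif2c, Kif4, Nusap1 and Aspm had 1 to 4, 26 to 71 and 14 to 63 reads in adhesion tissue and 0 to 1, 9 to 25 and 2 to 9 in heart. Over the group the day 3 sum was 7.17-fold higher (5.47 to 9.52) in adhesion tissue and 6.44-fold higher (4.12 to 10.6) in heart.

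Cytokinesis genes were higher at day 3 in both tissues, with intervals above 1 for 7 of 7 in each. Anln (chromosome 9, 22331214 to 22389206), which encodes the actin-binding anillin of the cleavage furrow, had 8, 82 and 64 reads in adhesion tissue at days 1, 3 and 7 and 8, 45 and 15 reads in heart at days 0, 3 and 7. It was 11.4-fold higher (5.54 to 27.4) in adhesion tissue and 4.71-fold higher (2.2 to 11.6) in heart at day 3 than in the first library. Prc1 (chromosome 7, 80294465 to 80316259), whose product bundles the midzone microtubules, had 7, 78 and 43 reads in adhesion tissue and 2, 26 and 22 in heart. Part of its transcript is identical to sequence of Rccd1. At day 7 Prc1 still stood 6.11-fold (2.72 to 16.1) above day 1 in adhesion tissue and 9.53-fold (2.34 to 83.6) above day 0 in heart. Iqgap3 (chromosome 3, 88082051 to 88121048), a scaffold gene of dividing cells, had 8, 80 and 46 reads in adhesion tissue and 2, 21 and 9 in heart. Adhesion tissue at day 3 was 11.2-fold higher (5.4 to 26.7) than at day 1, and heart at day 3 was 8.8-fold higher (2.15 to 77.4) than at day 0. Kif20a, Kif23, Ect2 and Racgap1 had 6 to 13, 37 to 67 and 25 to 34 reads in adhesion tissue and 0 to 5, 16 to 36 and 4 to 14 in heart. The sum of the 7 genes was 8.19-fold higher (6.23 to 10.9) in adhesion tissue and 6.6-fold higher (4.26 to 10.7) in heart at day 3.

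Chromosome structure genes held the 2 members with the most reads. Mki67 (chromosome 7, 135689788 to 135716379), which encodes the Ki-67 protein that coats mitotic chromosomes, had 87, 578 and 313 reads in adhesion tissue at days 1, 3 and 7 and 3, 182 and 86 reads in heart at days 0, 3 and 7. The day 3 library was far above the first in both tissues, 7.42-fold (5.91 to 9.4) in adhesion tissue and 50.9-fold (17.1 to 249) in heart. At day 7 Mki67 remained 3.58-fold (2.81 to 4.59) above day 1 in adhesion tissue and 24.8-fold (8.22 to 123) above day 0 in heart. Top2a (chromosome 11, 98992947 to 99024189), the DNA topoisomerase gene that untangles chromosomes, had 39, 277 and 160 reads in adhesion tissue and 4, 78 and 26 in heart. It was 7.93-fold higher (5.66 to 11.4) in adhesion tissue and 16.4-fold higher (6.13 to 61.5) in heart at day 3. Smc4 (chromosome 3, 69004972 to 69034623), a condensin core gene, had 84, 144 and 117 reads in adhesion tissue and 34, 77 and 51 in heart. Smc4 differed less, 1.91-fold (1.45 to 2.54) at day 3 in adhesion tissue and 1.9-fold (1.25 to 2.93) in heart, and was well detected in every library. Among the other condensin genes, Ncapd2 had 34, 118 and 83 reads in adhesion tissue and 52, 82 and 57 in heart, Smc2 had 26, 86 and 85 in adhesion tissue and 12, 26 and 30 in heart, and Ncapg had 3, 38 and 25 in adhesion tissue and 0, 12 and 1 in heart. Smc2 alone in the group had its highest heart value at day 7, but its heart ratio of day 7 to day 3, 1.19 (0.682 to 2.1), was within counting error. Its adhesion value at day 7 was close to that at day 3. In heart at day 3 against day 0, 3 of the 6 genes of the group were over 3-fold higher and 4 had intervals above 1. Intervals that included 1 were those of Ncapd2, at 1.32 (0.923 to 1.91), and Smc2, at 1.82 (0.885 to 3.95).

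Heart at day 0 was not empty of these transcripts, but most of its reads came from a few of them. Of its 261 member reads, 203 (77.8%) belonged to Cenpf, Ncapd2, Smc4, Cenpa, Hmmr and Smc2, chosen as the 6 with the most reads in that library, and the other 34 members shared 58 reads, with 11 of them at 0 and at most 8 reads each. Divided by gene length as well as by depth, as RPKM, Cenpa led that library at 13.5, before Ncapd2 at 6.72, Smc4 at 4.86, Cenpf at 3.15, Hmmr at 2.09 and Smc2 at 1.32. Racgap1 was next at 0.952, and the median of the 40 members was 0.302. The same order was led by Cenpa in heart at days 3 and 7, at 19.0 and 12.3 RPKM, by Smc4 in adhesion tissue at day 1, at 11.5 RPKM, and by Mki67 in adhesion tissue at days 3 and 7, at 35.5 and 16.8 RPKM. The ratio of the sum was thereby below that of the other 34 genes. Without those 6 genes, which the heart day 0 library itself selected, heart was 12.7-fold higher (9.73 to 16.9) at day 3 and 5.47-fold (4.14 to 7.34) at day 7 against day 0, and adhesion tissue 8.77-fold higher (7.79 to 9.9) at day 3 and 5.01-fold (4.43 to 5.68) at day 7 against day 1. Near-identical sequence of at least 150 bases at 95% identity was found for Cenpf over at most 1.74% of its transcript, and none for Cenpa, Ncapd2, Smc4, Hmmr and Smc2.

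At day 7 the members were lower than at day 3 in both tissues. The sum at day 7 was 1.69-fold lower (1.59 to 1.79) than at day 3 in adhesion tissue and 1.73-fold lower (1.57 to 1.9) in heart. In adhesion tissue 39 of 40 members had a ratio below 1 and 22 had an interval below 1, where 8.78% of all genes had one. In heart 37 of 40 had a ratio below 1 and 21 an interval below 1, where 4.33% of all genes had one. A value over 3-fold lower was found in adhesion tissue for 1 member, the kinetochore gene Knstrn with 41 reads at day 3 and 14 at day 7, where 1.82% of all genes were, and for 9 in heart, where 2.37% were. Mki67 was 2.07-fold lower (1.8 to 2.39) in adhesion tissue and 2.05-fold lower (1.58 to 2.68) in heart, and Top2a 1.94-fold lower (1.59 to 2.38) and 2.9-fold lower (1.84 to 4.71). Plk1, the gene of Polo-like kinase 1, had 4, 44 and 16 reads in adhesion tissue and 2, 14 and 1 in heart, 3.09-fold lower (1.71 to 5.86) and 13.5-fold lower (2.06 to 573) at day 7 than at day 3. The genes with few reads had wide intervals, and 18 members in each tissue had intervals that included 1.

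Cenpf alone went in opposite directions in the 2 tissues with both intervals excluding 1. At day 7 it was 1.86-fold lower (1.37 to 2.52) than at day 3 in adhesion tissue and 1.7-fold higher (1.25 to 2.32) in heart. It was also the only member lower in adhesion tissue than in heart at day 7 with an interval that excluded 1. The difference was not tested, since each value came from 1 library.

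**Figure D4:**
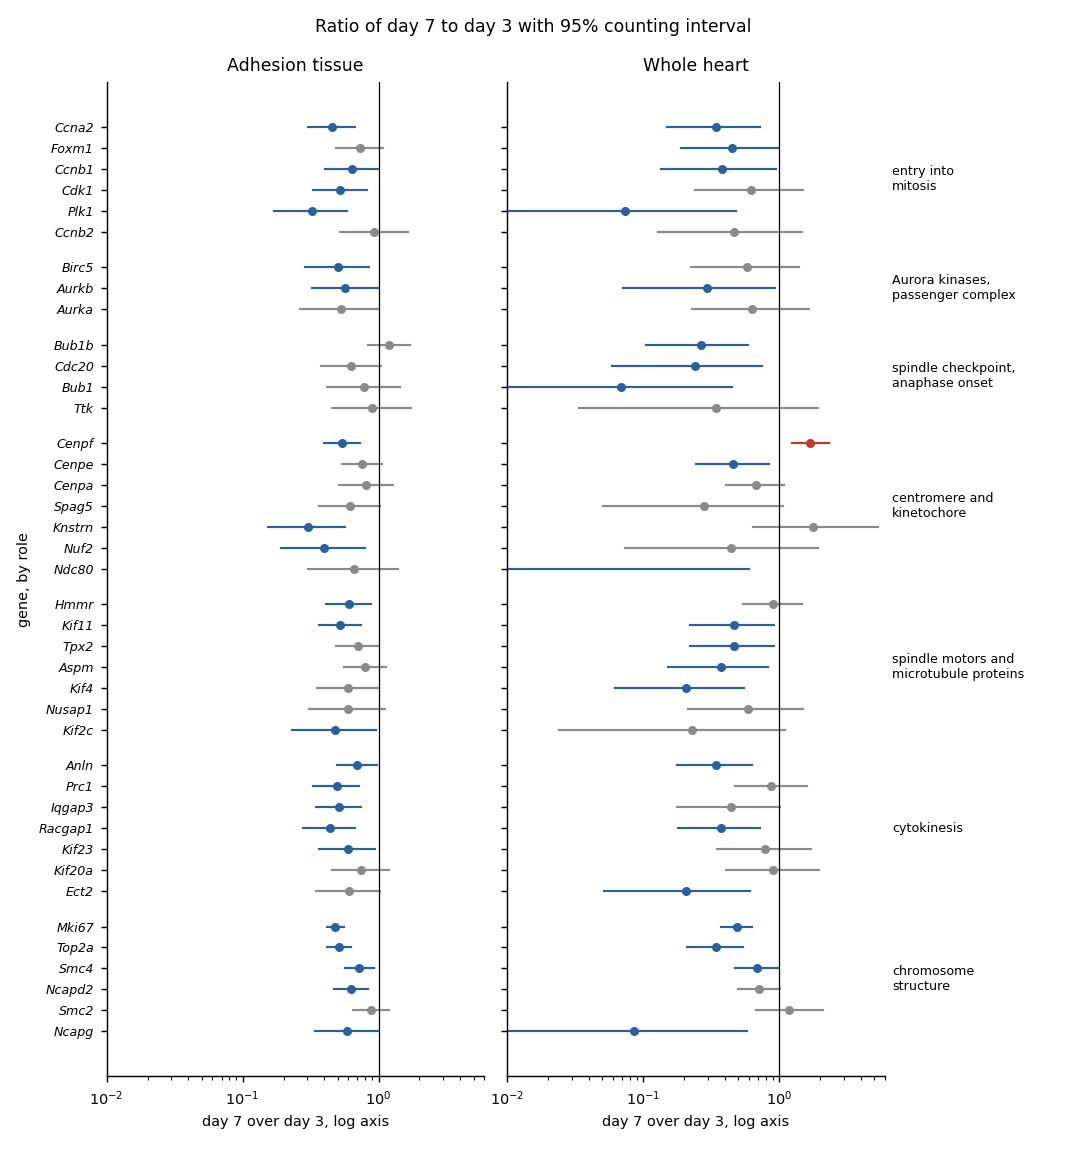
Ratio of day 7 to day 3 on a log axis (x) for the 40 mitosis genes (y, by role) in adhesion tissue and in heart, with exact 95% counting intervals as bars (cut at 0.01) and the line at 1. Blue marks intervals below 1 (22 genes in adhesion tissue, 21 in heart), red the interval above 1 (Cenpf in heart) and grey those that include 1. Ndc80 in heart has 0 reads at day 7 and shows its interval alone.

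Between tissues at the same day, reads were compared as CPM, because the tissues were scaled in separate tables. The sum of the members in adhesion tissue was 2.77-fold higher (2.59 to 2.96) than in heart at day 3 and 2.9-fold higher (2.65 to 3.16) at day 7. At day 3, 38 of 40 members had an interval above 1, where 27.6% of all genes had one, and 14 were over 3-fold higher, where 10.2% of all genes were. At day 7, 34 had an interval above 1, where 26.9% of all genes had one, and 26 were over 3-fold higher, where 9.33% were. The median log2 ratio over all genes was itself 0.22 at day 3 and 0.29 at day 7, against 1.42 and 1.92 for the members. Mki67 was 3.56-fold higher (3.01 to 4.23) in adhesion tissue than in heart at day 3 and 3.59-fold higher (2.82 to 4.61) at day 7. Cenpa did not differ beyond counting error, with ratios of 1.05 (0.675 to 1.62) at day 3 and 1.28 (0.776 to 2.14) at day 7. The checkpoint group had the highest group ratio at day 7, 9.86-fold (5.79 to 18.1), against 2.35-fold (1.76 to 3.18) at day 3. Scaling by edgeR's TMM factors lowered the day 3 and day 7 ratios of the sum to 2.31 and 2.42.

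A wider list of 54 other mitosis genes was also highest at day 3. Over 3-fold higher values were found in adhesion tissue for 40 of 54 at day 3 and 27 of 54 at day 7. Of all genes, 3.78% and 5.13% were. In heart the counts were 34 of 54 and 18 of 52, where 6.66% and 6.84% of all genes were. Intervals above 1 were found for 44 and 29 of 54 in adhesion tissue, where 12.5% and 13.9% of all genes had one. In heart there were 23 of 54 and 3 of 52, where 9.19% and 8.46% had one. The heart day 7 count over 3-fold rested on few reads, with 22 of the 54 genes at 0 reads at day 0. Over 3-fold lower in these 4 comparisons were 0, 0, 0 and 1. The gene over 3-fold lower was Trip13, a checkpoint gene named here after its values were seen, with 3, 24 and 14 reads in adhesion tissue and 4, 8 and 0 in heart. That call came from the value added to each level. With 0 reads set to the floor of 3, Trip13 was 1.54-fold lower in heart at day 7 than at day 0, and its counting interval included 1. Incenp, the gene of the inner centromere protein of the passenger complex, had 22, 126 and 62 reads in adhesion tissue and 10, 29 and 22 in heart. Pttg1, which encodes securin, had the most reads of the list and went the other way in heart, with 24, 16 and 28 reads in adhesion tissue at days 1, 3 and 7 and 137, 80 and 96 reads in heart at days 0, 3 and 7. It was 2.04-fold lower (1.54 to 2.73) in heart at day 3 than at day 0 and 4.46-fold lower (2.59 to 8.18) in adhesion tissue than in heart at day 3, and was the only gene of the list whose interval went against the sum in these comparisons.

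Genes of DNA replication and of the step from G1 to S phase showed smaller ratios. Their sum was 2.09-fold higher (1.93 to 2.26) in adhesion tissue at day 3 and 1.35-fold (1.25 to 1.47) at day 7 against day 1, and 1.98-fold higher (1.75 to 2.25) and 1.49-fold (1.3 to 1.7) in heart against day 0. Of 33 genes, 7 (21.2%) were over 3-fold higher in adhesion tissue at day 3 and 12 (36.4%) in heart at day 3, where 3.78% and 6.66% of all genes were. At day 7 the counts were nearer those of all genes, 3 (9.09%) in adhesion tissue and 4 (12.1%) in heart, where 5.13% and 6.84% of all genes were, and none was over 3-fold lower at either day. Intervals above 1 were found in adhesion tissue for 23 (69.7%) at day 3 and 10 (30.3%) at day 7, where 12.5% and 13.9% of all genes had one. In heart they were found for 15 (45.5%) and 5 (15.2%), where 9.19% and 8.46% of all genes had one. Tyms, the thymidylate synthase gene, had 118, 122 and 137 reads in adhesion tissue and 74, 145 and 117 in heart, and Pcna, the gene of the sliding clamp of DNA polymerase, had 124, 171 and 158 reads in adhesion tissue and 50, 81 and 76 in heart. For each read of this list, the members had 0.509 (0.456 to 0.568), 1.64 (1.54 to 1.73) and 1.5 (1.4 to 1.6) reads in adhesion tissue at days 1, 3 and 7. In heart at days 0, 3 and 7 they had 0.737 (0.626 to 0.868), 1.46 (1.33 to 1.59) and 1.12 (1.01 to 1.25). This ratio does not depend on the scaling of a library, and it was lowest in the first library of each tissue.

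Subunits of the anaphase-promoting complex (APC/C) and of cohesin, which act in mitosis but are expressed through the cell cycle, were near level. Their sum differed by at most 1.08-fold from the first library, and 0 of 20 genes were over 3-fold higher or lower in any of these 4 comparisons. Anapc5 and Anapc1, the scaffold genes of the complex with the most reads, were well detected in every library. Anapc5 had 266, 252 and 281 reads in adhesion tissue and 328, 384 and 386 in heart, and Anapc1 had 272, 293 and 351 reads in adhesion tissue and 213, 263 and 275 in heart. Against the direction of the sum, Anapc7 was 1.59-fold lower (1.03 to 2.49) in adhesion tissue at day 7 than at day 1, and Anapc5, Anapc13 and Cdc23 were 1.36-fold lower (1.16 to 1.6), 2.23-fold lower (1.44 to 3.53) and 1.69-fold lower (1.17 to 2.46) in adhesion tissue than in heart at day 3. These are subunits of the complex. The exons of Cdc23 overlap those of Kif20a on the opposite strand.

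A list of 21 genes that govern whether a cell leaves the resting state had no common direction. It held D cyclins, their kinases and Cdk2, CDK inhibitors and pocket proteins, and also E2f4 and the MuvB subunits Lin9, Lin37, Lin52 and Lin54. The sum was 1.09-fold lower (1.02 to 1.17) in adhesion tissue at day 3 than at day 1, and 1.14-fold lower (1.04 to 1.23) in heart at day 3 than at day 0. At day 7 it was 1.29-fold lower (1.21 to 1.38) in adhesion tissue than at day 1, and in heart the ratio to day 0 was 0.966 (0.89 to 1.05). Ccnd2, which encodes cyclin D2, had 522, 313 and 165 reads in adhesion tissue at days 1, 3 and 7 and 332, 295 and 393 reads in heart at days 0, 3 and 7, lowest at day 7 in adhesion tissue. Cdkn1a, the gene of the inhibitor p21, had 340, 233 and 168 reads in adhesion tissue and 55, 55 and 36 in heart, the highest value being adhesion tissue at day 1. Cdk4, the kinase gene partnered by D cyclins, was 1.3-fold higher (1.03 to 1.64) in adhesion tissue at day 7 than at day 1 and 1.6-fold higher (1.06 to 2.44) in heart at day 7 than at day 0, and Rbl2, which encodes the pocket protein p130, was 1.79-fold higher (1.32 to 2.43) in adhesion tissue at day 7 than at day 1. Ccnd1, the cyclin D1 gene, was 1.82-fold lower (1.37 to 2.43) in heart at day 7 than at day 3. Cdkn1c, the gene of the inhibitor p57, was singled out after its values were seen, with 9, 9 and 117 reads in adhesion tissue and 30, 29 and 54 in heart. That was 11.6-fold higher (5.89 to 25.9) in adhesion tissue at day 7 than at day 3, while the members were lower.

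Marker genes of cell types that can divide moved with the members in part. Macrophage markers summed to 3879, 7979 and 7568 CPM in adhesion tissue at days 1, 3 and 7 and 442, 1443 and 1754 CPM in heart at days 0, 3 and 7, and all 12 were detected in every library. They did not move as 1 group in adhesion tissue, where 9 and 8 of 12 had intervals above 1 at days 3 and 7 against day 1 and 3 and 4 had intervals below 1. In heart 11 and 10 of 12 had intervals above 1 at days 3 and 7 against day 0, and 1 and 0 below 1. Although the adhesion sum was near level from day 3 to day 7, 9 of 12 macrophage markers had intervals below 1 there. Of all genes, 8.78% did, and 2 of the 12 had intervals above 1. In heart at day 7 against day 3, 5 of 12 had intervals above 1 and 0 below 1. Fibroblast markers summed to 2582, 28770 and 45660 CPM in adhesion tissue and 1692, 11980 and 12760 CPM in heart, with all 10 detected throughout. Their sum was highest at day 7 in both tissues, where the members were below day 3. At day 7 against day 3, 9 of 10 had intervals above 1 in adhesion tissue but 3 of 10 in heart, where 7 included 1. At day 3 against the first library, 8 of 10 had intervals above 1 in adhesion tissue and 7 of 10 in heart. Neutrophil markers summed to 2549, 709.8 and 629 CPM in adhesion tissue and 29.8, 120.4 and 106 CPM in heart, highest in adhesion tissue at day 1. Of these 10 genes Elane was at 0 reads in 5 libraries. In heart 2, 4 and 2 of the 10 were at 0 reads at days 0, 3 and 7. At heart day 3 against day 0, 4 of the 8 with a read had intervals above 1 and 0 below 1. Endothelial markers summed to 562, 664 and 807 CPM in adhesion tissue and 1156, 1249 and 1201 CPM in heart, with all 9 detected. On the deposited scale their heart ratios to day 0 were 0.958 (0.901 to 1.02) at day 3 and 0.955 (0.899 to 1.02) at day 7. In heart 1 and 2 of 9 had intervals above 1 at days 3 and 7, and 2 and 2 below 1. In adhesion tissue 3 and 6 of 9 had intervals above 1 against day 1, and 0 and 0 below 1. Smooth muscle markers summed to 241, 304 and 333 CPM in adhesion tissue and 694, 455 and 473 CPM in heart, with all 6 detected. They were split in adhesion tissue, where 2 of 6 had intervals above 1 and 1 below 1 at day 3, and likewise at day 7. They went against the members in heart, where 6 of 6 had intervals below 1 at day 3 and 5 of 6 at day 7. Mesothelial markers summed to 76, 98.4 and 65.1 CPM in adhesion tissue and 43.2, 9.39 and 22 CPM in heart, 5.19-fold lower (3.04 to 9.39) in heart at day 3 than at day 0, where Krt19 and Upk3b were at 0 reads at day 3. Thymocyte and T cell markers, which come with dividing cells in the thymus, were at 342 CPM in adhesion tissue at day 1. At days 3 and 7 they were at 47.6 and 29.8 CPM. The part of such cells in the member reads of day 1, against which later adhesion days were set, was not tested. In heart these markers summed to at most 29.2 CPM, with 6 of 12 at 0 reads at days 0 and 3. B cell markers summed to 203, 208 and 77.5 CPM in adhesion tissue and 6.42, 10.5 and 15.4 CPM in heart. The part of each cell type in the members' reads was not tested. Muscle markers took a smaller share of adhesion tissue at day 3 than at days 1 and 7. With muscle, erythroid and oxidative phosphorylation genes and Rn45s left out of the totals, the sum of the members was 6.62-fold and 3.73-fold higher in adhesion tissue at days 3 and 7 and 4.25-fold and 2.40-fold higher in heart.

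**Figure D5:**
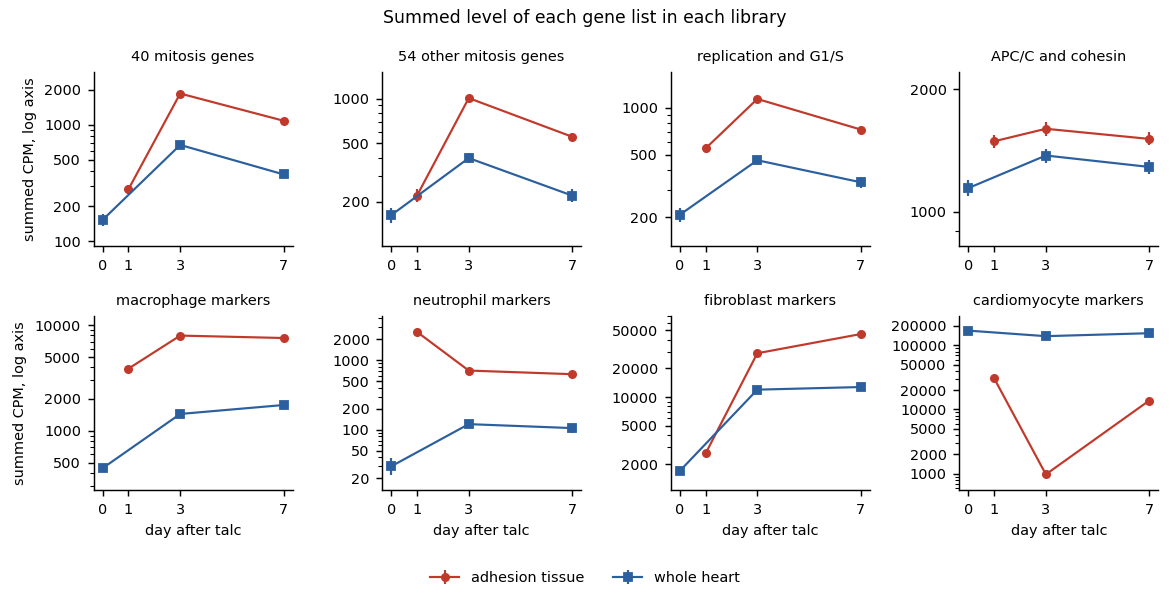
Summed CPM on a log axis (y) against the day after talc (x) for 4 cell cycle lists and 4 marker lists, in adhesion tissue (red circles) and heart (blue squares), 1 library per point, with exact 95% Poisson intervals that cover counting error only and are mostly smaller than the symbols. The mitosis genes peak at day 3 in both tissues (1862 and 673 CPM). The fibroblast marker sum is highest at day 7, narrowly so in heart (12760 CPM against 11980 at day 3).

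Exons of 6 members overlapped those of another gene. Ccna2, Kif20a, Nusap1, Cdc20 and Ncapg overlapped genes on the opposite strand, with 0.897% to 28.6% of their length shared with any single gene. Kif20a overlapped both Cdc23 (28.6%) and Brd8 (4.79%). Foxm1 overlapped a gene on the same strand over 2.06%. The libraries were made with a kit that keeps strand, but the sources used here do not state whether counting used it, so reads in those stretches are uncertain for these genes. Near-identical sequence was found for 13 of the 40 members. Outside the exon overlaps above and Ccnb1, it covered over 10% of a transcript for Prc1 (22.1%, shared with Rccd1), Racgap1 (16.0%, with a pseudogene), Ndc80 (13.8%) and Kif4 (13.7%, with Pdzd11), whose reads are uncertain to that extent.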

How the data were processed

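RNA from adhesion tissue and heart was depleted of ribosomal RNA and sequenced on a MiSeq with a directional kit, 1 library per condition. The values deposited by the authors are a signal, reads per gene multiplied by 1 factor per library, scaled separately within each tissue's table. The submitters' processing notes name TopHat, Cufflinks, edgeR and mm10 without versions, and no counter, annotation or strand setting was given in the sources used. Whole reads were recovered by dividing each column by its smallest step, and 100% of the values came out whole within 0.1 read. In adhesion tissue at day 3 the step was 0.991, which is close to 1. The authors' own time course statistics in the tables were not used, and 0 other columns of values per library were left out.

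Ratios within a tissue were computed on the deposited scale and between tissues as CPM, each with an exact 95% binomial interval on the reads. Folds over 3 were counted after adding 1 to each value, among genes with a read in either library. A count of 0 was replaced by a floor of 3 reads, and no fold was given where both libraries had 3 reads or fewer, although such genes stay in the counts over 3-fold. The depth of 1615922 to 1844565 reads limits genes of few reads most. Count models need replicates and were not run. The members and lists were chosen with earlier results of these data known. In each role the 3 members with the most reads were described in full, as were members that went against the others. In each pathway list these were the 2 genes with the most reads and up to 3 whose interval went against the sum. Near copies were searched with blastn at 95% identity over 150 bases. Alternatives were other pseudocounts, a minimum of 10 reads, CPM, TMM, size factors from DESeq2, library totals that left out Rn45s and genes of muscle, erythroid cells and oxidative phosphorylation, and sums without Mki67 and Top2a or without 6 members. R 4.3.3, edgeR 4.0.16, DESeq2 1.42.0, Python 3.11.15, numpy 2.4.6, pandas 2.3.3, scipy 1.17.1 and matplotlib 3.10.9 were used, and the ratio and interval code was tested on simulated data.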

Additional observations from a re-analysis of the deposited data

Results flagged for a closer look

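Cenpf went in opposite directions between days 3 and 7 in the 2 tissues. Its ratio of day 7 to day 3 was 0.539 in adhesion tissue (119 reads at day 3 and 72 at day 7) and 1.70 in heart (70 and 115 reads). The summed reads of D cyclins, CDK inhibitors and pocket proteins also differed in direction, with a day 7 to day 3 ratio of 0.847 in adhesion tissue and 1.10 in heart. Each value comes from 1 library per day, and neither difference was tested.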

How the results depend on the processing

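Each condition was 1 library, so leaving out a replicate could not be done, and the intervals leave out any variation between mice. No paired analysis was possible because each group had 1 library. At this depth 29 of 40 members had 3 reads or fewer in heart at day 0. Relative to CPM, the deposited scale shifted heart log2 ratios to day 0 by -0.17 at day 3 and -0.12 at day 7. Among the ratios checked, none whose interval excluded 1 changed direction, and no count did. The ratio of Cenpf in heart at day 3 to day 0, 0.978 with an interval that included 1, was 1.10 with CPM and 1.002 with DESeq2 size factors. Of the counts and sums, 61 of 82 alternative values stayed within 1.5 times the count or within the counting interval of the sum. With a pseudocount of 5, members over 3-fold higher numbered 21 in adhesion tissue at day 7 and 5 in heart at day 7, and with at least 10 reads required, 12 in heart at day 7. Without Mki67 and Top2a, the sum was 3.16-fold and 1.95-fold higher in heart at days 3 and 7, the day 7 to day 3 ratio in adhesion tissue was 0.632, and the ratio of adhesion tissue to heart was 2.52 at day 3 and 2.65 at day 7. Without the 6 members with the most heart day 0 reads, an alternative chosen after seeing the data, the sum was 8.77-fold and 5.01-fold higher in adhesion tissue and 12.7-fold and 5.47-fold higher in heart at days 3 and 7, the day 7 to day 3 ratio in heart was 0.430, and the ratio of adhesion tissue to heart was 3.09 at day 3 and 4.20 at day 7. The ratio of adhesion tissue to heart at days 3 and 7 was 2.31 and 2.42 with TMM, 2.41 and 2.47 with DESeq2 size factors, and 2.49 and 2.49 with muscle, erythroid and oxidative phosphorylation genes and Rn45s left out of the totals. Of 360 alternative ratios of the 21 members described in full, 351 kept their side of 1 by the interval and 9 gained an interval that excluded 1. The other members, most of them with fewer reads, were not in this check. The causes of these shifts were not tested.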
